A study of Homo sapiens with 9 samples.

Results

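Cells exposed for 12 h to 20 nM okadaic acid were compared with untreated cells, with 3 arrays in each group. The series holds 9 arrays in all, and the other 3 are from cells exposed to 60 nM for the same time. The genes compared were the named genes whose mean log2 intensity was above background in the untreated or the 20 nM group, which left 9891 of 22465. Background was set at a log2 intensity of 5.82, the 95th percentile of 23 background probe sets. Of the 9891 genes, 9689 were above it in both groups, 98 in the 20 nM group alone and 104 in the untreated group alone.

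The cells are labelled SH-SY5Y, a human neuroblastoma line that is a subclone of an older culture and grows as neuroblast-like cells. The untreated cells received no okadaic acid, and the labels name no vehicle for them. All groups carried the line's own genotype, with no added allele, and all were exposed in medium with reduced serum. Replicates are described as biological, but no label says that each came from its own culture, so p-values measure only the spread between these samples. The treatment field of the 60 nM arrays reads 20 nM, against their title code, their source name and the design text. They were taken as 60 nM arrays.

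Okadaic acid is a polyether toxin made by marine dinoflagellates. It binds the catalytic subunits of the serine/threonine phosphatases PP2A and, at higher concentrations, PP1, and so leaves the substrates of many kinases phosphorylated. In neuronal cells it is known for raising the phosphorylation of tau and for prolonging signalling through MAP kinases. An array of this kind measures RNA, not phosphorylation, and a bulk sample cannot tell a change in the number of cells of a kind from a change in RNA per cell.

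At 20 nM, 3 of the 9891 genes above background differed from untreated cells at a Benjamini-Hochberg adjusted p under 0.05 in limma, which is 0.0303% of them. HEXIM1 and SHISA2 were higher (0.0202%) and FBXW8 was lower (0.0101%). Over all 22465 genes, 5 were called (0.0223%), the other two being ETV1 and PBLD, both below background in every group. Without adjustment, 782 genes above background had p under 0.05 (7.91%), of which 282 were higher (2.85%) and 500 lower (5.06%). These counts moved with single arrays, to 325 and 921 without untreated replicate 1, 211 and 377 without untreated replicate 2 and 346 and 391 without untreated replicate 3. They were 246 and 333 without 20 nM replicate 1, 225 and 883 without 20 nM replicate 2 and 291 and 263 without 20 nM replicate 3, so that the excess of lower genes was not seen in the last of these. Over all 22465 genes the share with unadjusted p under 0.05 was 4.98% (1119 genes). The same arrays of untreated cells set against 60 nM gave 3992 called genes of 9891 (40.4%), 1363 higher and 2629 lower. The comparisons of 20 nM and of 60 nM with untreated cells share the untreated arrays.

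The windows upstream of the 3 called genes above background are shown because these are the only named genes above background called at this dose. Each is the 250 bases before the gene's annotated start in RefSeq (assembly GRCh38.p14), written 5′ to 3′ on the gene's strand. Capitals mark matches to 6 motifs, searched on both strands. These were the TATA box, with the letters TATAAA, and the box named by its letters CCAAT. The GC box was searched as GGGCGG and the E-box as CACGTG. The cAMP response element was searched as TGACGTCA and the AP-1 site as TGANTCA. No matches of different motifs overlapped in these windows.
HEXIM1, chr17:45148225-45148474, + strand: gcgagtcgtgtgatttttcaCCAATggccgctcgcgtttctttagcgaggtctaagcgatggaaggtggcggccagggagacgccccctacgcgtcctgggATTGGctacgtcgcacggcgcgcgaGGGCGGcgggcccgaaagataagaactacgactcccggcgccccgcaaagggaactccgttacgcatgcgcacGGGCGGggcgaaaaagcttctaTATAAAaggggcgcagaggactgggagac
SHISA2, chr13:26052017-26052266, - strand: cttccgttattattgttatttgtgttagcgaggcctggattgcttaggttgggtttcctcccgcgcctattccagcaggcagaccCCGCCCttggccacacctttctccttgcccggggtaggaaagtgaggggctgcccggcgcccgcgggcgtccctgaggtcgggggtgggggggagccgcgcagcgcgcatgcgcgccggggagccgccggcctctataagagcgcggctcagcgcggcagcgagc
FBXW8, chr12:116910700-116910949, + strand: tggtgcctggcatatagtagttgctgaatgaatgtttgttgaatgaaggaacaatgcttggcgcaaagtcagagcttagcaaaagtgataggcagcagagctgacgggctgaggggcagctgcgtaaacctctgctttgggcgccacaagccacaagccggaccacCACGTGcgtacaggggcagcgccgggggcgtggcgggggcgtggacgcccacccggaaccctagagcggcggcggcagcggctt
The HEXIM1 window was 62.4% G and C and held a TATA box 29 to 24 bases before the start, a CCAAT box on each strand and 2 GC boxes. The SHISA2 window was 67.6% G and C and held 1 GC box, on the opposite strand. The FBXW8 window was 61.2% G and C and held the E-box, a palindrome that reads alike on both strands, 84 to 79 bases before the start. None of the 3 windows held the cAMP response element or the AP-1 letters. Over 35116 RefSeq windows of the same length, 10.7% held the TATA box, 32.0% the CCAAT box, 42.6% the GC box, 6.34% the E-box, 1.65% the cAMP response element and 6.57% the AP-1 letters. A match describes letters and shows no binding.

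HEXIM1 encodes a nuclear protein that, together with the 7SK RNA, holds the transcription elongation factor P-TEFb in an inactive complex. Its log2 intensity was 9.76, 9.68 and 9.77 on the untreated arrays and 10.50 on each of the 3 arrays at 20 nM. Every 20 nM array was above every untreated array. The log2 fold change was 0.76 (SE 0.05, 95% confidence interval 0.64 to 0.88, limma adjusted p = 0.00744), a 1.69-fold rise. The 20 nM arrays carry 1 repeated value to 4 decimals, so their own SD is 0. Repeats of this kind, with all 3 arrays of a group at 1 value, were found in 350 genes above background at 20 nM (3.54%) and in 348 untreated (3.52%). At 60 nM the gene stood at 12.63, 12.64 and 12.81, a log2 fold change of 2.96 against untreated cells. The 60 nM level was above the 20 nM level by 2.20 (SE 0.05, limma adjusted p = 2.99e-06).

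SHISA2 encodes a membrane protein of the endoplasmic reticulum, from a family that in frog embryos holds back the maturation of FGF and Wnt receptors. The untreated arrays gave 8.89, 8.77 and 8.97 and the 20 nM arrays 9.63, 9.68 and 9.63. The groups did not overlap, and the 20 nM arrays lay closer together than the untreated ones. SHISA2 rose by 0.77 on the log2 scale (SE 0.07, 95% confidence interval 0.61 to 0.93, limma adjusted p = 0.0393), or 1.71-fold. At 60 nM it stood at 10.16, 9.97 and 9.95, which is 1.15 above untreated cells. The step from 20 nM to 60 nM was 0.38 (SE 0.07, limma adjusted p = 0.00869), so that the difference between untreated and 20 nM was larger in value than the one between 20 nM and 60 nM, a comparison that was not itself tested.

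FBXW8 encodes an F-box protein that brings substrates to the CUL7 ubiquitin ligase. It stood at 8.12, 8.14 and 8.08 on the untreated arrays and at 7.56, 7.64 and 7.56 at 20 nM. Its 20 nM replicates 1 and 3 carry the same value, on too few arrays for the alternative without repeated values to leave FBXW8 out. All 20 nM arrays were lower than all untreated arrays. The log2 fold change was -0.53 (SE 0.05, 95% confidence interval -0.63 to -0.42, limma adjusted p = 0.0366). At 60 nM the arrays gave 6.59, 6.74 and 6.61, a change of -1.47 against untreated cells and of -0.94 against 20 nM.

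The calls of these 3 genes depended on single arrays. Without untreated replicate 3 all 3 remained called (adjusted p = 0.0209 for HEXIM1, 0.0325 for SHISA2 and 0.0484 for FBXW8). HEXIM1 lost its call without untreated replicate 1 or 2 (adjusted p = 0.0578 and 0.0825) and without 20 nM replicate 1, 2 or 3 (0.0967, 0.0619 and 0.0970), while its log2 fold change stayed between 0.73 and 0.78 under every alternative tried. SHISA2 lost its call without the same arrays, with adjusted p between 0.0869 and 0.286, and FBXW8 likewise, with adjusted p between 0.0619 and 0.286. Each gene was called under 10 of the alternatives, of 17 for HEXIM1 and 18 for SHISA2 and FBXW8. The adjusted p ran over all of them from 0.00744 to 0.107 for HEXIM1, from 0.0280 to 0.295 for SHISA2 and from 0.0263 to 0.286 for FBXW8. The alternative with a higher background level reuses the same fit, so these calls could not change there. Averaging over probe sets left the 3 fold changes as they were. HEXIM1 has no value without genes with repeated values, because it is itself left out. No alternative turned the direction of any of the 3, but leaving out arrays could not do so, because their groups do not overlap.

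**Figure D1:**
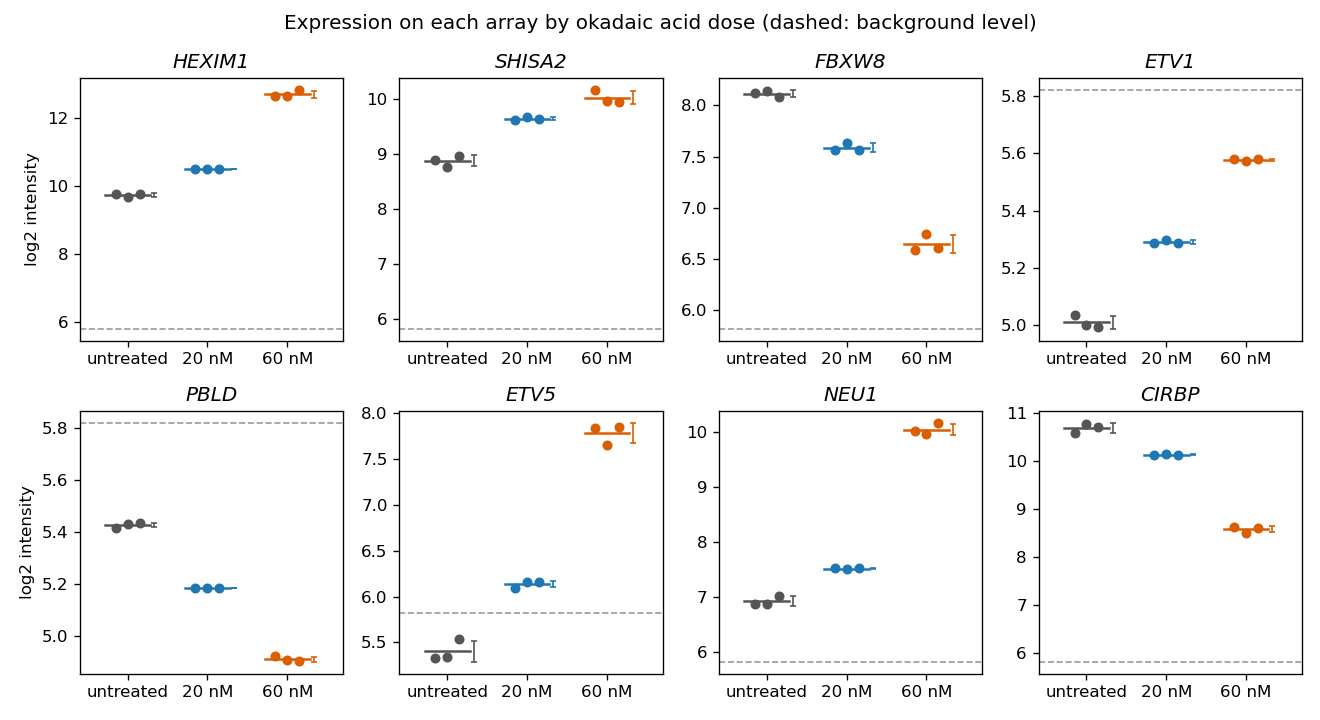
Log2 intensity on each array for the 5 called genes and for ETV5, NEU1 and CIRBP, which missed the threshold narrowly. Points are arrays, horizontal lines are group means, bars at the side are SD (n = 3), and the dashed line is the background level of 5.82, above which ETV1 and PBLD never rise.

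ETV1 and PBLD were called at levels where the array measures little more than background. ETV1, an ETS transcription factor of the PEA3 group, gave 5.04, 5.00 and 4.99 untreated and 5.29, 5.30 and 5.29 at 20 nM. The groups did not overlap but all of these values lay under 5.82. The fitted difference was 0.28 (SE 0.02, limma adjusted p = 0.00744), and ETV1 stood at 5.57 to 5.58 at 60 nM. Its 20 nM replicates 1 and 3 carry the same value. In the fit without genes with repeated values its SE was 0.053 and it was not called (limma adjusted p = 0.182). PBLD, which encodes a protein with a phenazine biosynthesis-like domain, gave 5.42, 5.43 and 5.43 untreated and 5.18 on each array at 20 nM. Its fitted difference was -0.24 (SE 0.02, limma adjusted p = 0.00744), with all 3 arrays at 20 nM again at 1 value. No fold is given for either gene because both groups were under the background level. ETV1 lost its call without untreated replicate 1 or 2 and without 20 nM replicate 1 or 3 (adjusted p from 0.0563 to 0.0970), as did PBLD (0.0563 to 0.0970), out of ranges over all alternatives of 0.00521 to 0.203 for both. In the fit of the 6 arrays compared, neither ETV1 (limma adjusted p = 0.0805) nor PBLD (0.0721) was called.

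For most genes the difference at 20 nM was small and its interval narrow. The log2 fold changes of the 9891 genes ran from -1.10 to 1.07 with a median of -0.0050, and the median size, whatever its sign, was 0.0634. The size exceeded 0.276 in the top 5% of genes, which puts SHISA2, HEXIM1 and FBXW8 among these. A difference of 2-fold or more was measured for 3 genes and of 1.5-fold or more for 41. The 95% confidence interval of a gene had a median half-width of 0.191. It lay wholly within 2-fold in either direction for 9753 genes (98.6%) and within 1.5-fold for 8806 (89.0%). These intervals are per gene and not adjusted for the number of genes. Repeated values can make SEs, and so these intervals, too small. The median SE was 0.0810, and it was 0.101 over the 6392 genes above background in the fit without genes with repeated values. For comparison, the median size at 60 nM was 0.232 and 730 genes differed by 2-fold or more. The median SD within a group was 0.108 untreated, 0.0917 at 20 nM and 0.0685 at 60 nM.

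**Figure D2:**
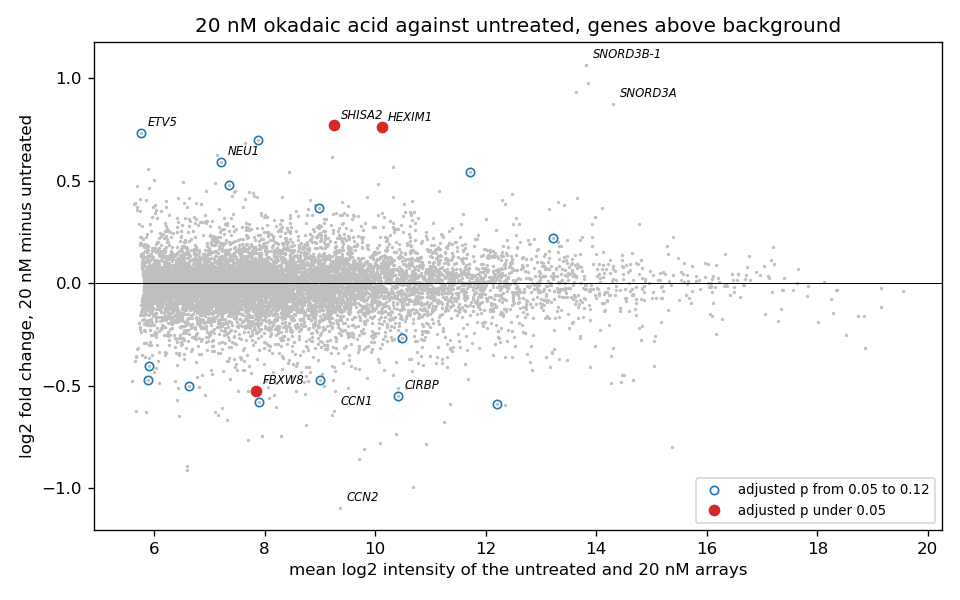
Log2 fold change at 20 nM (vertical axis) against the mean log2 intensity of the untreated and 20 nM arrays (horizontal axis) for the 9891 genes above background. Filled points are the 3 called genes, open circles the 15 genes with adjusted p from 0.05 to 0.12. The largest differences, such as CCN2 at -1.10 and SNORD3B-1 at 1.07, were not among the called genes.

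Untreated and 20 nM arrays were fully apart for 894 of the 9891 genes (9.04%), 352 of them higher at 20 nM (3.56%) and 542 lower (5.48%). For 3 against 3 exchangeable arrays the probability of this is 0.1, so the share is no higher than exchangeable arrays would give. Groups that do not overlap are therefore a description and not evidence of a difference by themselves. Among the 894 genes, 15 had an adjusted p between 0.05 and 0.12. They are named here after their values were seen, and no verb of change is used for them. Higher at 20 nM by value were ETV5, NEU1, FGF9, RDH10, TSPYL2, WDR47 and HDDC2. Lower by value were MIR5047, DHTKD1, CIRBP, H6PD, TMEM150C, ST3GAL3, C1RL and ATXN10.

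ETV5, an ETS factor of the same PEA3 group as ETV1, was among the closest to the threshold. Its untreated arrays gave 5.33, 5.34 and 5.54 and its 20 nM arrays 6.09, 6.16 and 6.16. The untreated arrays were all under the background level and the 20 nM arrays all over it. The fitted difference was 0.73 (SE 0.07, limma adjusted p = 0.0517), and measured against the background level the 20 nM mean was at least 1.25-fold higher. It was called under 7 of 18 alternatives, with adjusted p from 0.0209, reached without untreated replicate 3, to 0.306. At 60 nM it stood at 7.84, 7.66 and 7.85.

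NEU1, the lysosomal sialidase, gave 6.87, 6.88 and 7.02 untreated and 7.52, 7.50 and 7.52 at 20 nM. The difference was 0.59 (SE 0.06, limma adjusted p = 0.0517), against 3.13 at 60 nM. CIRBP, the cold-inducible RNA-binding protein, gave 10.58, 10.78 and 10.71 untreated and 10.13, 10.16 and 10.12 at 20 nM. Its difference was -0.55 (SE 0.05, limma adjusted p = 0.0517), against -2.11 at 60 nM. In both genes the 2 groups were apart by several times their own spread while the adjusted p stayed over the threshold. Leaving out untreated replicate 3 brought NEU1 under it (0.0325, out of 0.0290 to 0.355 over all alternatives).

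Of the remaining genes in this range, FGF9, a secreted fibroblast growth factor, had a difference of 0.70 (7.68, 7.59 and 7.34 untreated, 8.18, 8.32 and 8.20 at 20 nM). RDH10, a retinol dehydrogenase of retinoic acid synthesis, had 0.54. TSPYL2, of the nucleosome assembly protein family, had 0.48, and WDR47, a microtubule-associated protein of neurons, had 0.37. On the lower side, DHTKD1, a mitochondrial enzyme of lysine breakdown, had -0.58 with all 3 arrays at 20 nM at 1 value (7.60). H6PD, which makes NADPH in the endoplasmic reticulum, had -0.50. ST3GAL3, a sialyltransferase, had -0.47 and C1RL, a complement-related protease, -0.40, and both ended under background at 20 nM, which makes them at least 1.24-fold and 1.22-fold lower. ATXN10, the gene that carries the repeat expansion of spinocerebellar ataxia type 10, had -0.27.

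MIR5047 and HDDC2 differed from the other 13 in that at 60 nM they did not lie further from untreated in the same direction. MIR5047, a microRNA gene, gave 12.61, 12.39 and 12.51 untreated, 11.86, 11.91 and 11.97 at 20 nM and 12.05, 11.96 and 11.92 at 60 nM. The values at both doses were below every untreated array and overlapped each other. Its difference was -0.59 at 20 nM (limma adjusted p = 0.0619), and the step from 20 nM to 60 nM was 0.06 (95% confidence interval -0.08 to 0.21, limma adjusted p = 0.580). HDDC2 was 0.22 higher at 20 nM (limma adjusted p = 0.111) with a difference of -0.18 from untreated at 60 nM, and its fall from 20 nM to 60 nM, -0.40, passed the test (limma adjusted p = 1.52e-04). Probes for a microRNA gene can also take up RNA of the transcript it lies in, so the value of MIR5047 need not be that of the mature microRNA.

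The largest differences by size were not called. U3 small nucleolar RNA genes, whose RNA guides the processing of the ribosomal RNA precursor, were higher by value: SNORD3B-1 by 1.07, SNORD3D by 0.97, SNORD3C by 0.93 and SNORD3A by 0.88 (limma adjusted p from 0.281 to 0.362). SNORD3B-1 gave 13.03, 13.05 and 13.79 untreated, 14.38, 14.42 and 14.27 at 20 nM and 15.54, 15.52 and 15.53 at 60 nM. Untreated replicate 3 stood above the other two untreated arrays in each of these genes, and every 20 nM array was above it. Without it SNORD3B-1 was called at 1.32 (adjusted p = 6.64e-04, out of 6.64e-04 to 0.797 over all alternatives). These genes are near-identical copies, SNORD3B-1 and SNORD3B-2 carry the same values on every array, and the array cannot assign the signal to one of them.

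CCN2, a secreted matricellular protein whose gene is a target of YAP and SRF, had the lowest fold change of all. It gave 9.61, 10.23 and 9.91 untreated and 8.40, 9.40 and 8.66 at 20 nM. The groups did not overlap, but 20 nM replicate 2, at 9.40, lay close under the lowest untreated array while the other two lay further down. The difference was -1.10 (SE 0.27, 95% confidence interval -1.74 to -0.45, limma adjusted p = 0.543). At 60 nM CCN2 stood at 9.21, 9.01 and 9.39, a difference of -0.71. CCN1, its paralog, was at -0.63 (SE 0.13, limma adjusted p = 0.374) at 20 nM and -0.53 at 60 nM. Higher by value among the other large differences were ADAMTS1, a secreted metalloprotease, at 0.68 (limma adjusted p = 0.199) and CXCR4, a chemokine receptor, at 0.62 (0.213). ADAMTS1 gave 7.29, 7.28 and 7.32 untreated and 7.92 to 8.02 at 20 nM, groups that were apart, and was called in the fit of the 6 arrays alone (adjusted p = 0.0410, out of 0.0410 to 0.663).

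The gene lists describe what genes of known roles did at this dose. Of 780 measured genes on 31 lists, 611 were above background and 0 of these were called by limma, with 0.0517 as their lowest adjusted p. The counts that follow are of members above background with an unadjusted p under 0.05, to be read against 282 higher (2.85%) and 500 lower (5.06%) of all 9891 genes, and medians against -0.0050. With so few members at that level, many of these counts moved by more than 1.5 times when 1 array was left out. Some genes are on more than 1 list, so counts of different lists are not all separate observations. List genes named with a value, other than those the rule always takes, were chosen after their values were seen.

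The genes of the toxin's own targets gave no call and had small differences by value. Of 35 genes for PP1, PP2A, PP4, PP5 and PP6 subunits, inhibitors and methylation enzymes, 0 had an unadjusted p under 0.05 (2, both lower, without untreated replicate 1 or 20 nM replicate 2). Without untreated replicate 3, 1 was higher, and 1 was higher and 3 lower when 20 nM replicate 2 was left out as well. The log2 fold changes of the 35 lay between -0.12 and 0.21 with a median of 0.01. Their 95% confidence intervals reached down to -0.63 and up to 0.80, so larger changes are not excluded for some members. PPP2CA, the alpha catalytic subunit of PP2A, gave 10.90, 10.88 and 10.61 untreated and 10.90, 10.95 and 10.84 at 20 nM. The groups overlapped, and the difference was 0.10 (95% confidence interval -0.09 to 0.29, limma adjusted p = 1). For PPP2CB, the beta catalytic subunit, the difference was 0.11 (-0.02 to 0.23), and for PPP1CA, a catalytic subunit of PP1, 0.02 (-0.14 to 0.19). The signs of PPP2CA and PPP1CA turned under some alternatives. The regulatory subunit PPP2R5A was at -0.11 and IGBP1, which binds free PP2A catalytic subunits, at -0.12.

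Immediate early genes, which need no new protein synthesis to be switched on, gave no call at 20 nM. Of 16 above background, 4 were higher and 2 lower at unadjusted p under 0.05, with a median of 0.11, while 13 of the 16 rose and 1 fell at 60 nM. The 2 lower were CCN2 and CCN1, which are also on the list of SRF and YAP targets. The 4 became 1 without untreated replicate 1, untreated replicate 2 or 20 nM replicate 2 and 2 without 20 nM replicate 1. Only 14 of the 16 were above background untreated. The others, with JUNB among them, entered through the 20 nM group, so the filter fixed the positive sign of their difference at 20 nM. JUNB, a subunit of the AP-1 factor, gave 5.37, 5.73 and 5.84 untreated, 6.17, 6.20 and 5.78 at 20 nM and 10.77, 10.34 and 10.90 at 60 nM. At 20 nM its arrays overlapped with the untreated ones. On 2 of the 3 untreated arrays and on 1 array at 20 nM JUNB was under the background level, so that its difference depends on that level. The difference was 0.41 (95% confidence interval -0.05 to 0.87, limma adjusted p = 1). Its level at 60 nM was 4.61 above that at 20 nM. FOS, another AP-1 subunit, was below background at 20 nM as in untreated cells and rose at 60 nM, where it gave 6.97, 6.71 and 6.86, all above background. JUN was at -0.12 (-0.36 to 0.12) and rose by 0.92 at 60 nM. EGR1, a zinc finger factor, was at 0.26 (-0.30 to 0.82), with untreated replicate 3 at 7.10 against 7.83 and 7.85 for the other two, and rose by 1.82 at 60 nM. Without untreated replicate 3 its difference at 20 nM was 0.0114.

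The feedback inhibitors of MAP kinase signalling and the ETS factors and output genes of ERK leaned to higher values without a call. Of 13 feedback inhibitors above background, 4 were higher at unadjusted p under 0.05 (30.8%) and 0 lower. All 13 fold changes were above 0, between 0.02 and 0.40, with a median of 0.18. The 4 ran from 3 to 6 when 1 array was left out, with 6 without untreated replicate 3, and the median was 0.09 without untreated replicate 1. The 10 ERK output genes above background were also all above 0 (median 0.13), with 2 at unadjusted p under 0.05. Only 11 of the 13 and 8 of the 10 were above background untreated. The others, with SPRY4 and ETV5 among them, entered through the 20 nM group, so the filter fixed their positive sign. The medians stayed between 0.09 and 0.23 and between 0.09 and 0.21 under the alternatives. At 60 nM the medians were 0.75 and 1.14, with 10 and 8 genes called higher and 0 lower in either list.

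SPRY4, a Sprouty inhibitor of receptor signalling to ERK, gave 5.40, 5.44 and 5.57 untreated and 5.86, 5.86 and 5.86 at 20 nM. The groups were apart, but the untreated mean was under background, which makes the 20 nM mean at least 1.03-fold higher. Its fitted difference was 0.39 (limma adjusted p = 0.160). ERRFI1, an inhibitor of the EGF receptor, gave 10.39, 10.48 and 10.53 untreated and 10.85, 10.93 and 10.83 at 20 nM. It was 0.40 higher (SE 0.07, limma adjusted p = 0.233), against 2.84 at 60 nM. SPRED2, a SPRED inhibitor of RAF activation, was 0.25 higher at 20 nM and 0.16 higher at 60 nM and passed the test at neither. MYC, a growth-promoting transcription factor, was at 0.28 (95% confidence interval 0.07 to 0.49, limma adjusted p = 0.809). CCND1, a G1 cyclin, was at 0.03 (-0.14 to 0.19).

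**Figure D3:**
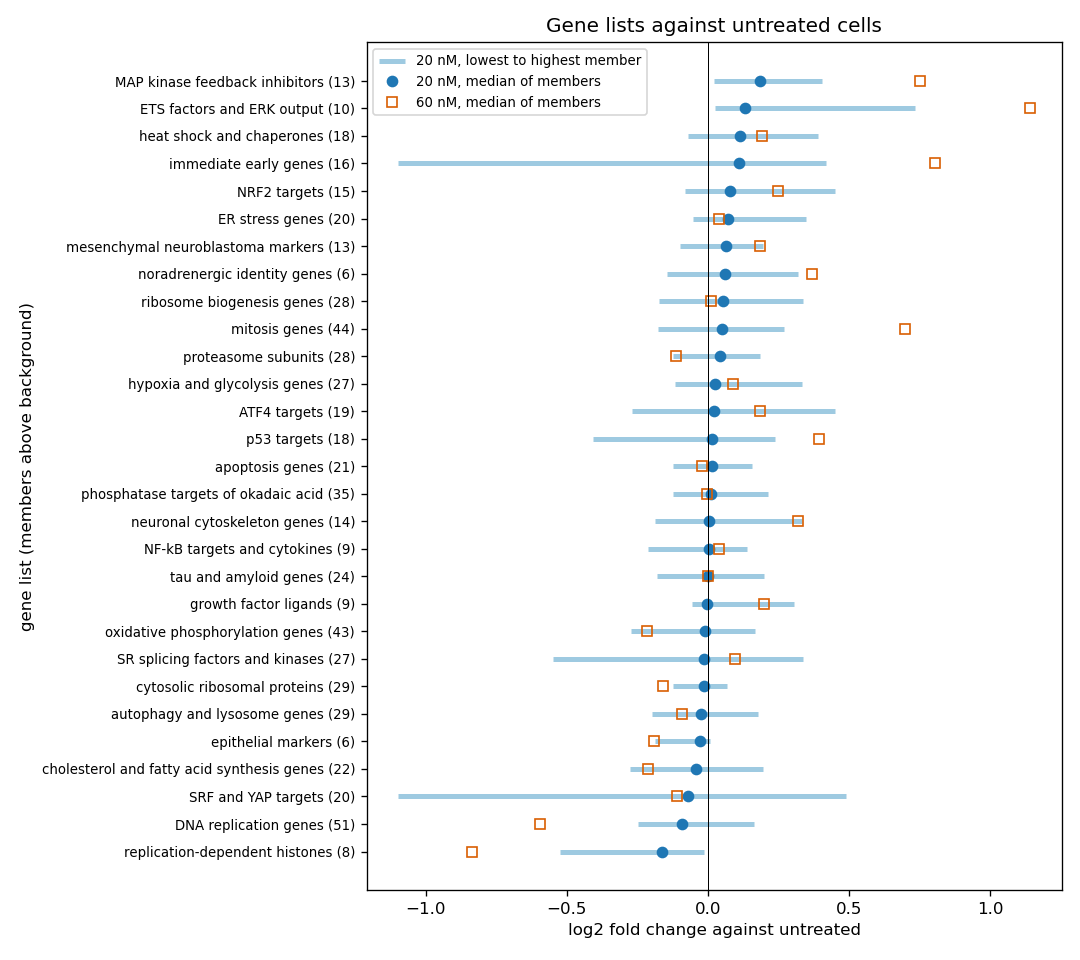
Log2 fold change against untreated cells for the lists with more than 1 member above background. Bars run from the lowest to the highest member at 20 nM, filled circles are medians at 20 nM and open squares medians at 60 nM. At 20 nM the list medians lie between -0.16 and 0.18. Both doses are set against the same untreated arrays.

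Targets of SRF and YAP, genes of the actin cytoskeleton and the matrix, leaned the other way. Of 20 above background, 7 were lower (35.0%) and 0 higher at unadjusted p under 0.05, and 14 had negative fold changes, with a median of -0.07 that lay between -0.19 and -0.01 under the alternatives. The 7 became 4 without untreated replicate 2, untreated replicate 3 or 20 nM replicate 3, and 1 was then higher without untreated replicate 3, where the median was -0.01. The list holds CCN2 and CCN1, which are also the 2 lower members of the immediate early list. AMOTL2, an angiomotin that binds YAP, gave 6.17, 6.26 and 6.23 untreated and 6.03, 6.08 and 6.06 at 20 nM. Its groups did not overlap and its difference was -0.16 (SE 0.03, limma adjusted p = 0.285), against -0.17 at 60 nM, where it was called. At 60 nM the list had a median of -0.11, with 3 genes called higher and 7 lower.

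Most DNA replication genes had small negative fold changes, and mitosis genes had no steady direction. Of 51 replication genes above background, 38 had negative fold changes, 6 were lower at unadjusted p under 0.05 (11.8%) and 0 higher. The 6 became 16 without untreated replicate 1, 2 without untreated replicate 2 or 20 nM replicate 3, and 3 without untreated replicate 3 or 20 nM replicate 1. Their median was -0.09 and lay between -0.15 and -0.04 under the alternatives, against -0.60 at 60 nM, where 35 were called lower and 4 higher. PCNA, the sliding clamp of DNA polymerases, gave 12.03, 12.06 and 12.14 untreated and 11.87, 11.95 and 11.85 at 20 nM. All its 20 nM arrays were lower, by a mean of -0.19 (SE 0.04, limma adjusted p = 0.484), and it fell by 0.60 at 60 nM. LIG1, the replicative DNA ligase, was at -0.17 and POLE2, a subunit of polymerase epsilon, at -0.24. All 8 replication-dependent histone genes above background had negative fold changes, with a median of -0.16 and 1 at unadjusted p under 0.05, the linker histone H1-2 (-0.52, SE 0.19, limma adjusted p = 0.899). Without untreated replicate 3 the histone median was -0.04 with 0 at unadjusted p under 0.05, and it was -0.05 when 20 nM replicate 2 was left out as well. Only 7 of the 8 histone genes were above background at 20 nM, so the filter fixed the negative sign of the other.

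Of 44 mitosis genes, 26 had positive and 17 negative fold changes, with 3 higher and 0 lower at unadjusted p under 0.05. The 3 became 6 without untreated replicate 3 and 1 without 20 nM replicate 3. The median was 0.05, turned to -0.05 without untreated replicate 3 or 20 nM replicate 2 and to -0.10 when both untreated replicate 3 and 20 nM replicate 2 were left out, and ranged up to 0.11. PTTG1, which encodes securin, was at 0.19 (SE 0.04, limma adjusted p = 0.484). AURKB, a kinase of chromosome alignment, was at 0.20 and CCNA2, a cyclin of S phase and mitosis, at 0.14. At 60 nM the list had a median of 0.70, with 31 genes called higher and 1 lower. CDKN1A, the cyclin-dependent kinase inhibitor p21, gave 7.22, 7.27 and 7.36 untreated and 7.58, 7.40 and 7.58 at 20 nM. The groups were just apart, with a difference of 0.24 (95% confidence interval 0.10 to 0.37, limma adjusted p = 0.522), and CDKN1A rose by 0.94 at 60 nM.

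The p53 targets had no shared direction. Of 18 above background, 1 was higher (CDKN1A) and 1 lower at unadjusted p under 0.05, with a median of 0.01. The lower one was DDB2, a damage recognition factor of nucleotide excision repair, at -0.41 (SE 0.10, limma adjusted p = 0.535) at 20 nM and -2.01 at 60 nM. Among 21 apoptosis genes, 0 had an unadjusted p under 0.05, and their fold changes lay between -0.12 and 0.15. Of 9 NF-kB targets and cytokines above background 0 did, and NFKBIA, the NF-kB inhibitor, was at -0.21 (limma adjusted p = 1).

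**Figure D4:**
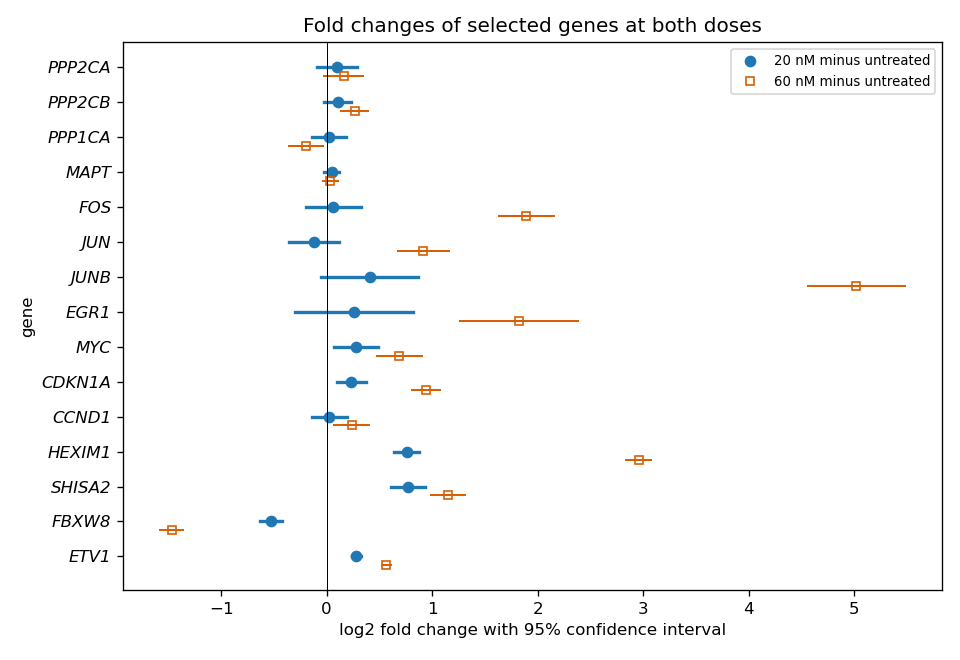
Log2 fold change with 95% confidence interval at 20 nM (filled circles) and 60 nM (open squares) for the 11 genes always named and for HEXIM1, SHISA2, FBXW8 and ETV1. At 20 nM the intervals of PPP2CA, PPP2CB, PPP1CA, MAPT, FOS, JUN, JUNB, EGR1 and CCND1 include 0, and those of MYC and CDKN1A do not although their adjusted p is over the threshold. FOS, ETV1 and MAPT are below background in both groups compared at 20 nM, and the untreated mean of JUNB is too, so their plotted differences depend on that level.

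The stress response lists gave no call at 20 nM. Of 18 heat shock and chaperone genes, 16 had positive fold changes at 20 nM and 2 an unadjusted p under 0.05 (5 without untreated replicate 3), with a median of 0.11 against 0.19 at 60 nM. HSPA1A, an inducible HSP70, gave 10.00, 10.15 and 10.38 untreated, 10.46, 10.50 and 10.46 at 20 nM and 10.05, 9.89 and 10.02 at 60 nM. The 20 nM arrays were above all others, by 0.29 over untreated (SE 0.09, limma adjusted p = 0.788), and the fall from 20 nM to 60 nM, -0.49, passed the test (limma adjusted p = 0.0107). DNAJA1, an HSP40 partner of HSP70, was at 0.24 at 20 nM and 0.57 at 60 nM. Of 20 ER stress genes, 18 had positive fold changes and 3 an unadjusted p under 0.05 (1 without 20 nM replicate 1 or 2), with a median of 0.07 against 0.04 at 60 nM. HSPA5, the chaperone BiP of the endoplasmic reticulum, gave 15.15, 15.21 and 15.21 untreated and 15.38, 15.47 and 15.26 at 20 nM. It was 0.18 higher at 20 nM (limma adjusted p = 0.725), and from 20 nM to 60 nM it fell by 0.18 (limma adjusted p = 0.0490). HERPUD1, of the ER-associated degradation machinery, was at 0.35 and at 1.51 at 60 nM.

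Of 19 ATF4 targets, 4 were higher and 1 lower at unadjusted p under 0.05, with a median of 0.02. The 4 became 1 without untreated replicate 2 or 20 nM replicate 1 and 2 without untreated replicate 1 or 3, and the median was -0.04 without untreated replicate 1. The lower one, ALDH1L2, a mitochondrial folate enzyme, was at -0.27. NRF2 targets numbered 15 with a median of 0.08, and TXNRD1, thioredoxin reductase, was at 0.16 (limma adjusted p = 0.521). Of 27 hypoxia and glycolysis genes, 3 were higher and 1 lower at unadjusted p under 0.05 (3 lower without untreated replicate 1). Only 26 of the 27 were above background untreated, so the filter fixed the positive sign of the other. VEGFA, the vascular growth factor, is also on the lists of growth factor ligands and of ATF4 targets. It gave 6.83, 6.77 and 6.82 untreated and 7.12, 7.12 and 7.09 at 20 nM. Its groups were apart by several times their spread, at 0.30 (SE 0.04, limma adjusted p = 0.142), and it rose by 1.34 at 60 nM. SLC2A3, a glucose transporter, was at 0.33.

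The housekeeping lists had medians near 0 at 20 nM. The medians were -0.01 for 43 oxidative phosphorylation genes, -0.02 for 29 cytosolic ribosomal proteins, 0.05 for 28 ribosome biogenesis genes, -0.01 for 27 SR splicing factors and kinases, -0.04 for 22 genes of cholesterol and fatty acid synthesis, -0.03 for 29 autophagy and lysosome genes and 0.04 for 28 proteasome subunits. In these lists between 0 and 2 members had an unadjusted p under 0.05, one of them NDUFS1, a subunit of complex I, at -0.20 (SE 0.04, limma adjusted p = 0.345) and -0.80 at 60 nM. Lower members became 5 in cholesterol and fatty acid synthesis without untreated replicate 1 and 5 among SR factors and kinases without 20 nM replicate 2. Among SR factors and kinases they were 10, with a list median of -0.09, when untreated replicate 3 was left out as well. The lowest member of that list with all arrays was CIRBP, at -0.55. Growth factor ligands, 9 of them above background, had a median of -0.00.

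Genes of tau and amyloid biology, for which okadaic acid is often used, showed no call. Of 24 above background, 1 was higher and 1 lower at unadjusted p under 0.05 (4 lower without untreated replicate 1), with a median of -0.00. MAPT, which encodes tau, was below background in every group, at 4.89, 4.79 and 4.89 untreated and 4.91, 4.89 and 4.93 at 20 nM. APP, the amyloid precursor, was at 0.06 with a 95% confidence interval of 0.02 to 0.11 (limma adjusted p = 0.759), and BACE1, the beta-secretase, at -0.18 (limma adjusted p = 0.925). BACE1 fell by 0.84 at 60 nM.

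The labelled cell type was checked against its markers in both groups. Of 24 measured noradrenergic identity genes, 5 were above background untreated and 6 at 20 nM. The filter fixed the positive sign of the member that entered through the 20 nM group. TH, which catalyses the first step towards dopamine (4.51 to 4.58), DBH (4.15 to 4.27) and PHOX2A (3.40 to 3.61) were under it on every array compared. These members of the list were not detected, while GATA3 and GCH1 are among the 6 that were. GATA3, a transcription factor of sympathetic neurons, was at -0.15 with all 3 arrays at 20 nM at 7.18, and GCH1, which makes the cofactor of TH, was at 0.32 (limma adjusted p = 0.164) and rose by 3.18 at 60 nM. Of 25 neuronal cytoskeleton genes, 14 were above background, among them the neurofilament gene NEFL at 0.25 (limma adjusted p = 0.484). Above background were also 13 of 21 mesenchymal neuroblastoma markers, with CD44 at 0.19. The same held for 6 of 16 epithelial markers and 1 of 14 leukocyte markers, and for 0 of 9 genes that mark Schwann cells and glia. The leukocyte marker was CD68, a lysosomal protein, at 0.37, while PTPRC, which marks leukocytes, stayed between 3.60 and 3.65. The summed log2 level of the epithelial list ran from 98.2 to 99.3 untreated and from 97.8 to 98.6 at 20 nM, and that of the leukocyte list from 57.3 to 57.9 and from 57.2 to 58.4.

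The arrays of the groups were alike in their summary values, with untreated replicate 3 and 20 nM replicate 2 somewhat apart. Array medians ran from 4.42 to 4.43 untreated and from 4.36 to 4.48 at 20 nM (exact two-sided permutation p = 1), and between 9730 and 9828 genes an array were above background. The 4 hybridisation controls averaged 9.71 ± 0.17 (SD, n = 3) on untreated and 9.42 ± 0.23 on 20 nM arrays (exact two-sided permutation p = 0.3). With 3 arrays a side, 0.1 is the smallest p this test allows. The chromosome score, the median log2 level of genes on chromosomes 16, 17, 19, 20 and 22 minus that on chromosomes 4, 5, 6, 13 and 18, was -0.15, -0.05 and 0.17 untreated and -0.00, -0.11 and -0.06 at 20 nM (exact p = 0.8). Untreated replicate 3 had the highest score and, with untreated replicate 1, the lowest correlation within its group (0.995). Without untreated replicate 3, 12 genes were called higher and 4 lower. Without both it and 20 nM replicate 2, the counts were 6 and 12, and the 3 genes called with all arrays were not among them. With the chromosome score as a covariate they were 10 and 6. The part of these differences between arrays in the results was not tested further.

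**Figure D5:**
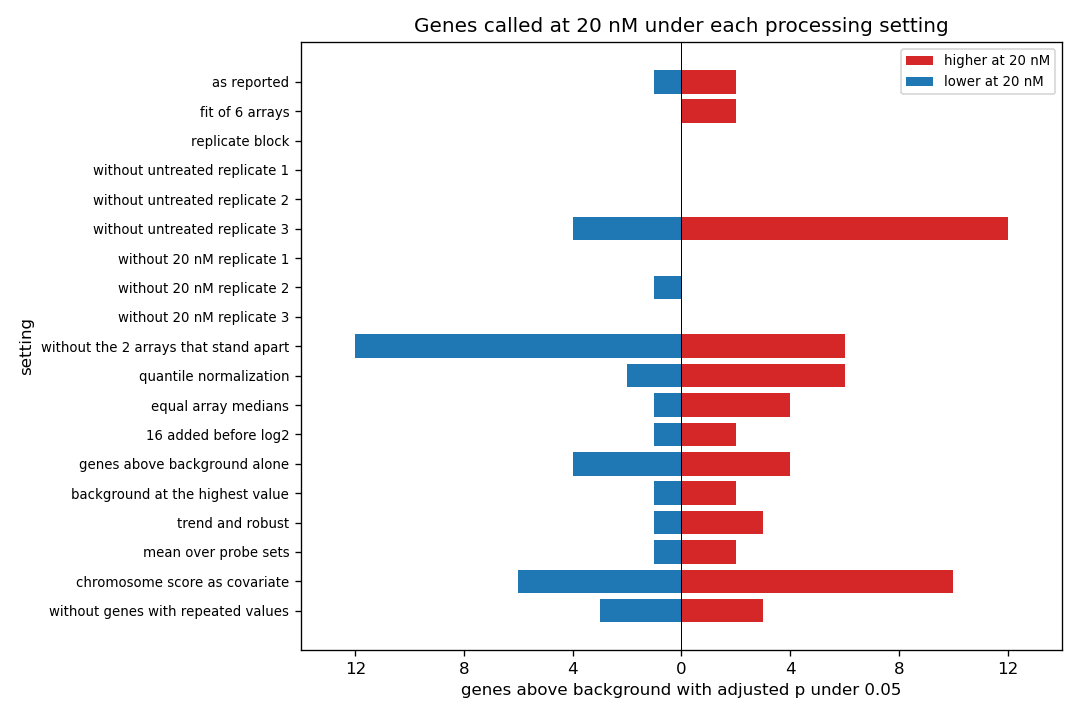
Number of genes above background called higher (right) and lower (left) at 20 nM under each processing setting. The counts run from 0 to 12 in either direction, against 2 higher and 1 lower as reported.

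By the limma contrast of 60 nM with 20 nM, 3405 of the 9891 genes differed (34.4%), 1168 higher at 60 nM (11.8%) and 2237 lower (22.6%). Of the 15 genes that the naming rule takes, whether above background or not, 10 passed this test, and under the alternatives 9 to 11. HEXIM1, SHISA2, ETV1, FOS, JUN, JUNB, EGR1, MYC and CDKN1A were higher at 60 nM than at 20 nM and FBXW8 was lower. PPP2CA, PPP2CB, PPP1CA, MAPT and CCND1 did not pass.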

How the data were processed

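Total RNA was column-purified and hybridised as biotin-labelled cRNA, per the labels' protocols. The authors deposited a table of 70523 probe sets by array. RMA is the tool in the submitters' processing notes, and its version and the genome build were not given in the sources used here. As deposited, the intensity values are on a linear scale (4.81 to 999953, median 21.8), although RMA usually gives log2 values, which the test plan had assumed. Here log2 was taken without adding a constant. Normalization across arrays would hide a shift common to most genes.

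The platform annotation names 1 gene for 23781 probe sets, several for 1543 and none for 42204 transcript clusters, and 2995 are control or exon sets. For 479 genes with several probe sets the brightest was used, which gave 22465 genes, of which 20295 matched RefSeq (0 symbols changed). Of these genes, 12364 repeat 1 value (4 decimals) on 3 or more of the 9 arrays, which can make SEs too small. Repeats on fewer arrays are not counted in this, and occur in FBXW8, ETV1 and NEU1 among others.

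All 9 arrays were fitted with limma 3.58.1 in R 4.3.3 (lmFit, eBayes) with a term per group, and p-values were adjusted by Benjamini-Hochberg over all 22465 genes, with 0.05 as the threshold. The functions were tested on simulated data. The number of arrays limits the precision. Array summaries were compared by exact permutation tests (scipy 1.17.1). The naming rule takes up to 15 called genes each way above background, up to 4 called members of a list, and PPP2CA, PPP2CB, PPP1CA, MAPT, FOS, JUN, JUNB, EGR1, MYC, CDKN1A and CCND1. Genes and lists were chosen with earlier results of these data known. Alternatives covered the arrays fitted, replicate numbers, scaling, an added constant of 16, filters, the spread model, several probe sets, the chromosome score and repeated values. No batch or scan date was given.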

Additional observations from a re-analysis of the deposited data

Results flagged for a closer look

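Transcript clusters without a gene symbol were outside the comparison of named genes, and 5 of them were called higher at 20 nM. In a limma fit of these 42204 clusters alone, with p adjusted over them, 8429 were above background, 8 were called (5 higher and 3 lower) and 866 had an unadjusted p under 0.05. The rises included TC01003142.hg.1, with a mean of 7.49 untreated and 9.40 at 20 nM (difference 1.91, SE 0.10, limma adjusted p = 0.00312), and TC17002216.hg.1, from 8.69 to 10.60 (1.91, SE 0.14, limma adjusted p = 0.0108). Both are larger than the highest fold change of a named gene, 1.07, and at 60 nM they stood 5.43 and 6.29 above untreated cells. The other rises were 3 bright clusters, with an untreated mean of 16.8 and log2 fold changes of 1.22 to 1.24, of which TC17000231.hg.1 and TC17001237.hg.1 carry the same fitted values. Among the falls was TC01005808.hg.1, from 9.47 to 7.96 (-1.51, SE 0.11, limma adjusted p = 0.0104), and -4.28 at 60 nM. These clusters were fitted with all 9 arrays alone and under none of the alternatives. How their calls depend on single arrays or on repeated values was not tested. No gene is named for these clusters here.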

How the results depend on the processing

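Every alternative kept the direction of HEXIM1, SHISA2 and FBXW8, and 67 of the 71 genes followed kept theirs under every alternative that gave them a value. Most of the genes followed, these 3 included, have groups that do not overlap. For such genes leaving out arrays cannot turn the sign, so those alternatives could not test their direction. The counts of genes called higher and lower, 2 and 1, became 2 and 0 in the fit of the 6 arrays, where the 2 were HEXIM1 and ADAMTS1. They became 6 and 12 without the 2 arrays that stand apart, 6 and 2 with quantile normalization and 4 and 1 with equal array medians. The counts were 4 and 4 over genes above background alone, 10 and 6 with the chromosome score, and 3 and 3 without genes with repeated values. Leaving out 1 array at a time gave 0 to 12 higher and 0 to 4 lower. With the replicate number as a block 0 genes were called by limma either way (909 of 22465 at unadjusted p under 0.05). Same-numbered arrays did not deviate together (correlations of deviations -0.680, -0.0149 and -0.156). Untreated replicate 3 gave 0.647 with 20 nM replicate 1 and -0.483 with 20 nM replicate 2. The deviations are centred within 3 arrays and carry array-wide differences, so these correlations cannot decide whether the numbers pair the samples. The count for 60 nM against 20 nM, 10, stayed between 9 and 11. Signs turned for PPP1CA without untreated replicate 1 (-0.0041) and 20 nM replicate 1 (-0.0286; -0.0286 to 0.0608 over single arrays), FOS without the same arrays (-0.0141 and -0.0228; -0.0228 to 0.149), CCND1 without 20 nM replicate 2 (-0.0160; -0.0160 to 0.0706) and PPP2CA without the 2 arrays that stand apart (-0.0176). The cause was not tested. Signal over background limits genes near a log2 level of 5.82.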
